A study of Mus musculus with 7 samples.

Results

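The 43 genes described here encode the DNA replication machinery: the proteins that mark replication origins, load and start the MCM helicase, copy both DNA strands and supply deoxyribonucleotides. They were listed by name for these roles, with earlier results of these data known, and matched by symbol to Ensembl identifiers. They make up 43 of the 29267 genes in each expression table, and all 43 had at least 1 TPM in every library. TPM, the usual unit of RNA-Seq, divides a gene's reads by transcript length and then by the total over all genes, so that it gives relative abundance.

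RNA was measured in 7 mouse libraries, 1 for each condition. The first 4 came from mouse embryonic fibroblasts of the OG2 strain, which carry an Oct4GFP transgene (a fluorescent reporter driven by the Oct4 promoter). These fibroblasts received retroviral Oct4, Sox2, Klf4 and c-Myc on days 0 and 1 and were cultured in mES medium (DMEM with serum, LIF and vitamin C) or in serum-free 5C medium (DMEM/F12 with N2, bFGF, LIF and vitamin C). On day 15 they were sorted by FACS into reporter-positive and reporter-negative cells, named mES-Oct4GFP+ or mES-Oct4GFP- after mES medium and 5C-Oct4GFP+ or 5C-Oct4GFP- after 5C medium. 5C-Oct4GFP+ (naive) and 5C-Oct4GFP+ (primed) were 5C-Oct4GFP+ cells cultured in naive medium (N2/B27, LIF, CHIR99021 and PD0325901) or in primed medium (N2/B27, bFGF and Activin A for induction, CHIR99021 and IWR1 for maintenance). They are called naive and primed cells below. The paper reports that GFP fluorescence was lost in primed medium, so that Oct4GFP+ in that name gives the origin of the cells. R1 ESCs-primed came from the mouse embryonic stem cell line R1, which was converted to the primed state on feeder fibroblasts. The labels give 20 passages for the naive, primed and R1 libraries and 0 for the sorted ones. For the converted cells the paper's legends give either a few days of culture or a further 20 passages, so their time in the new medium is uncertain. Each condition is 1 library, so the spread between cultures is unknown and no difference below was tested. Intervals are exact 95% counting intervals that cover the sampling of reads only.

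Eukaryotic chromosomes are copied once per division cycle. In G1 phase the origin recognition complex (Orc1 to Orc6), Cdc6 and Cdt1 load the ring-shaped MCM helicase onto DNA, and geminin (Gmnn) blocks further loading by binding Cdt1. In S phase Mcm10, Cdc45 and the GINS proteins turn the helicase on, polymerase alpha-primase lays down primers, and polymerases epsilon and delta extend the leading and lagging strands, held by the Pcna clamp that replication factor C loads. Fen1 and Lig1 finish the lagging-strand fragments, replication protein A covers single-stranded DNA, and ribonucleotide reductase makes the nucleotides. Many of these genes are known targets of E2F transcription factors, which are released from the retinoblastoma pocket proteins when cells commit to S phase. Pluripotent stem cells are known for a short G1 phase, so that a large share of a culture is in S phase.

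Promoters of 35 of the 43 genes were listed in RefSeq (GRCm38.p6), from 250 bases before to 50 after the start site, and were searched on both strands for the E2F letters TTTCCCGC, TTTCGCGC, TTTGCCGC and TTTGGCGC. A match stood in 15 of the 35 promoters (42.9%), compared with 2.6% of 27025 genes in the table and 4.26% of the 12709 of them that had at least 1 TPM in some library. The 15 genes were Mcm3, Mcm5, Mcm6, Mcm7, Orc1, Orc3, Cdc6, Cdt1, Gins3, Pola1, Pold1, Pold3, Pole2, Rfc3 and Lig1. Mcm4, Gmnn, Gins1, Gins2, Gins4, Prim2, Pole and Rfc2 had no entry. A match is a string of letters, not a measured binding site. Stretches of 4 promoters are printed 5′ to 3′ along the gene, with matches in capitals. Mcm5 (chr8:75109349-75109508, plus strand) and Mcm6 (chr1:128359706-128359865, minus strand) encode helicase subunits, and in each a run of capitals holds overlapping matches, 153 and 149 bases before the start site of Mcm5 and 110 and 106 before that of Mcm6. Orc1 (chr4:108579416-108579445, plus strand) differed most among the 7 libraries and Orc3 (chr4:34614965-34614994, minus strand) least, and both hold a match. The Orc1 and Orc3 stretches overlap exons annotated in GENCODE M21, and those of Mcm5 and Mcm6 lie before any annotated exon.
Mcm5: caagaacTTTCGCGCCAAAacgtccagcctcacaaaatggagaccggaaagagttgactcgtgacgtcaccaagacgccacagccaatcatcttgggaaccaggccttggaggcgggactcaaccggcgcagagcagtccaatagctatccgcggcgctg
Mcm6: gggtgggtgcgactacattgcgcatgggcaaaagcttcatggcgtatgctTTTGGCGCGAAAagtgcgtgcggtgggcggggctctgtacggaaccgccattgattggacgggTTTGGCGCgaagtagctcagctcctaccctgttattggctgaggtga
Orc1: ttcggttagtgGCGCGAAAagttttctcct
Orc3: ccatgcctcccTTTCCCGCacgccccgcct

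The summed expression of the 43 genes was lowest in mES-Oct4GFP- cells, at 2840 TPM or 0.284% of all transcripts, followed by 5C-Oct4GFP- cells at 4770 TPM (0.477%). The 5 other libraries lay between 5790 TPM in the 5C-Oct4GFP+ (primed) and 6730 TPM in the mES-Oct4GFP+ cells. In mES-Oct4GFP- cells 40 of the 43 genes had their lowest value of all 7 libraries, whereas 16.0% of the 17733 genes with at least 1 TPM in some library did. Orc3, Orc4 and Orc5 were the exceptions. In 22 of the 43 genes both Oct4GFP- libraries lay below all 5 others (9.25% of the 17733 genes), and mES-Oct4GFP+ cells had the highest value for 20 (16.6%). With the libraries rescaled by the median ratio over genes that count was 11. In bulk RNA, fewer replicating cells in a culture and less of these transcripts in each cell cannot be told apart.

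**Figure D1:**
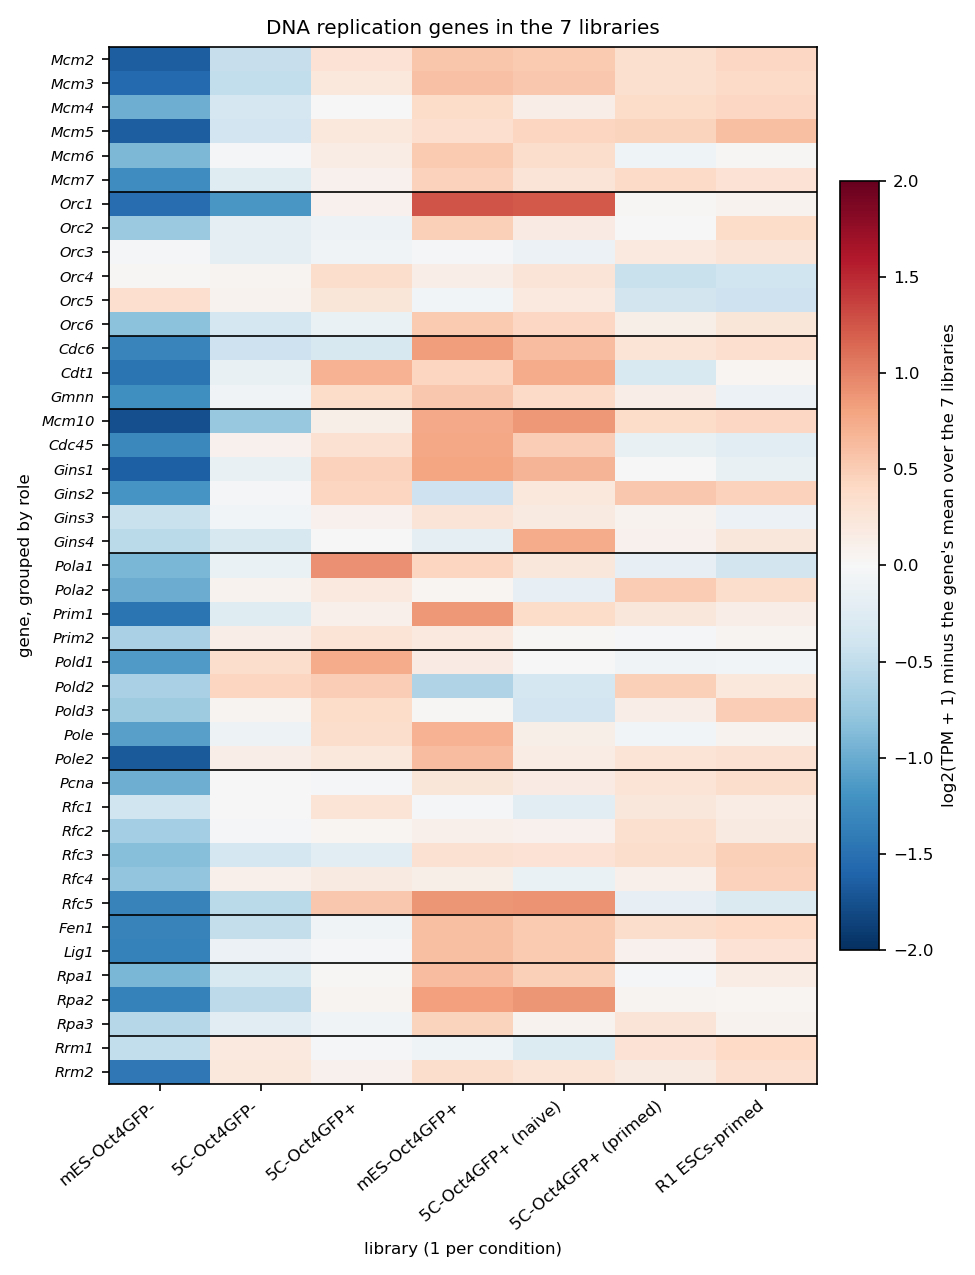
Expression of the 43 replication genes (rows, grouped by role with lines between groups) in the 7 libraries (columns). Colour gives log2(TPM + 1) minus the gene's mean over the 7 libraries, and the mES-Oct4GFP- column holds the lowest value of 40 of the 43 rows.

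Expected counts summed to between 6108252 and 11496615 per library, and those of the 43 genes ranged from 64 to 6339.7. Fibroblast markers (9 genes) summed to 531 TPM in the mES-Oct4GFP- and 309 TPM in the 5C-Oct4GFP- cells, and to between 11.8 and 16.4 TPM in the mES-Oct4GFP+, 5C-Oct4GFP+ and naive cells. They reached 81.6 TPM in the 5C-Oct4GFP+ (primed) and 227 TPM in the R1 ESCs-primed cells. Between the Oct4GFP- libraries the single markers were split, and their median was 36.4 TPM after mES and 43.4 TPM after 5C medium. Col1a1 (160 against 45.0 TPM), Col1a2, Col3a1, Postn and Pdgfra had higher values after mES medium. Thy1 (8.73 against 53.3 TPM), Fbn1, Dcn and Lum instead had higher values after 5C medium. Of 6 blood and endothelial markers, which summed to between 12.4 and 147 TPM, Ptprc, Tyrobp and Emcn were under 1 TPM in every library. Laptm5 had 57.7 TPM in the mES-Oct4GFP-, 67.1 TPM in the mES-Oct4GFP+, 80.0 TPM in the naive and 104 TPM in the 5C-Oct4GFP+ cells. Cd68 and Cdh5 were highest in mES-Oct4GFP- cells at 50.4 and 7.07 TPM, and Cd68 was close to that in 5C-Oct4GFP+ cells at 42.7 TPM. Zfp42, a marker of naive pluripotency, was at 337 and 219 TPM in the mES- and 5C-Oct4GFP+ cells, and at 1.31 and 14.1 TPM in the mES- and 5C-Oct4GFP- cells. Pou5f1, which encodes Oct4, went against the reporter in mES medium, with 3640.4 TPM in Oct4GFP- and 1321 TPM in Oct4GFP+ cells, and was at 1534 and 2429 TPM in the 5C-Oct4GFP- and 5C-Oct4GFP+ cells. Sox2 had higher values in Oct4GFP- than in Oct4GFP+ cells in both media, at 498 against 328 TPM in mES and 680 against 459 TPM in 5C medium. Nanog went with the reporter, but its 119.5 TPM in 5C-Oct4GFP- cells was near the 118 TPM of the 5C-Oct4GFP+ (primed) cells. Esrrb, Klf2, Tfcp2l1, Dppa3 and Tbx3 went with the reporter in both media. All 4 sorted libraries came from cells given retroviral Oct4 and Sox2, and reads of the virus and of the endogenous genes were not told apart. The part of fibroblast-like or blood-like cells in the differences below was not tested.

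The 6 MCM helicase genes followed 1 broad order, with mES-Oct4GFP- cells lowest. Mcm7 had the highest levels, from 148 TPM in the mES-Oct4GFP- and 298 TPM in the 5C-Oct4GFP- cells to 372 TPM in the 5C-Oct4GFP+, 420.2 TPM in the naive, 432 TPM in the R1 ESCs-primed cells, 459 TPM in the 5C-Oct4GFP+ (primed) and 483 TPM in the mES-Oct4GFP+ cells. Mcm2 was at 66.4 and 151 TPM in the mES- and 5C-Oct4GFP- cells, and at 256 TPM in the 5C-Oct4GFP+, 262 TPM in the 5C-Oct4GFP+ (primed), 279 TPM in the R1 ESCs-primed cells, 303 TPM in the naive and 308 TPM in the mES-Oct4GFP+ cells. Mcm3, Mcm4, Mcm5 and Mcm6 had 77.5, 73.4, 56.0 and 117 TPM in mES-Oct4GFP- cells and 342, 188, 226 and 315 TPM in mES-Oct4GFP+ cells. The 5C-Oct4GFP- library was second lowest for each MCM gene other than Mcm6, whose second lowest value was in primed cells at 207 TPM. Highest over lowest value ranged from 2.64-fold for Mcm4 to 4.86-fold for Mcm5.

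The origin recognition complex held both the widest and the narrowest span of the 43 genes. Orc1, the largest subunit (chr4:108579423-108614833, plus strand, GRCm38), was at 81.3 and 78.8 TPM in the mES-Oct4GFP+ and naive cells, at 35.5, 33.9 and 35.1 TPM in the 5C-Oct4GFP+ cells, 5C-Oct4GFP+ (primed) cells and R1 ESCs-primed, and at 11.0 and 14.3 TPM in the mES- and 5C-Oct4GFP- cells. Those 3 tiers did not overlap and spanned 7.42-fold. The counting interval was 9.20 to 13.0 TPM in mES-Oct4GFP- and 75.6 to 87.3 TPM in mES-Oct4GFP+ cells. Orc3 was nearly flat, with 82.2 TPM in the 5C-Oct4GFP- cells, 85.9 and 88.4 TPM in the naive and 5C-Oct4GFP+ cells, 90.2 and 90.8 TPM in the mES-Oct4GFP- and mES-Oct4GFP+ cells, and 106 and 111 TPM in the 5C-Oct4GFP+ (primed) and R1 ESCs-primed, a span of 1.35-fold. Orc2 was at 77.4 and 71.8 TPM in the mES-Oct4GFP+ and R1 ESCs-primed, 62.1, 55.6, 51.3 and 48.9 TPM in the naive, 5C-Oct4GFP+ (primed), 5C-Oct4GFP+ and 5C-Oct4GFP-, and 32.5 TPM in the mES-Oct4GFP- cells. Orc6 was lowest in mES-Oct4GFP- cells at 45.0 TPM and highest in mES-Oct4GFP+ cells at 116 TPM. Like Orc1, Orc2 and Orc6 were lowest in both Oct4GFP- libraries.

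Orc4 stood at 80.0 and 74.5 TPM in the 5C-Oct4GFP+ and naive cells, at 68.2, 65.0 and 63.4 TPM in the mES-Oct4GFP+, 5C-Oct4GFP- and mES-Oct4GFP- cells, and was lowest in 5C-Oct4GFP+ (primed) and R1 ESCs-primed at 45.7 and 47.1 TPM. Orc5 was the only one of the 43 genes with its highest value in mES-Oct4GFP- cells, at 564 TPM, followed by 533 TPM in the 5C-Oct4GFP+, 515 TPM in the naive, 469.5 TPM in the 5C-Oct4GFP-, 432 TPM in the mES-Oct4GFP+, 346 TPM in the 5C-Oct4GFP+ (primed) and 335 TPM in the R1 ESCs-primed cells. These levels rest on a mean transcript length that RSEM set between 538.1 and 838.6 bases in different libraries, and such lengths differed over 1.2-fold for 6 of the 43 genes (Orc3, Orc4, Orc5, Gins2, Pola1 and Pold3). Orc1, Orc2 and Orc6 were lowest in mES-Oct4GFP- cells, and Orc3, Orc4 and Orc5 were not.

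Among the licensing factors, Cdc6, which loads the helicase with ORC, was at 59.8 and 51.3 TPM in the mES-Oct4GFP+ and naive cells, 40.3 and 42.3 TPM in the 5C-Oct4GFP+ (primed) and R1 ESCs-primed, 26.4 and 24.6 TPM in the 5C-Oct4GFP+ and 5C-Oct4GFP- cells, and 12.7 TPM in the mES-Oct4GFP- cells. Cdt1, its partner, was ordered differently. It was at 160.2 and 155 TPM in the naive and 5C-Oct4GFP+ cells, 129 TPM in the mES-Oct4GFP+, 98.3 TPM in the R1 ESCs-primed cells, 86.6 TPM in the 5C-Oct4GFP-, 77.4 TPM in the 5C-Oct4GFP+ (primed) and 34.1 TPM in the mES-Oct4GFP- cells. The 5C-Oct4GFP+ library was thus low for Cdc6 and high for Cdt1. Gmnn, the Cdt1 inhibitor, was at 192, 173 and 171 TPM in the mES-Oct4GFP+, naive and 5C-Oct4GFP+ cells, 145, 126 and 123 TPM in the 5C-Oct4GFP+ (primed), 5C-Oct4GFP- and R1 ESCs-primed, and 56.0 TPM in the mES-Oct4GFP- cells.

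Of the helicase activators, Mcm10 was at 153 and 141 TPM in the naive and mES-Oct4GFP+ cells, 112 and 108 TPM in the R1 ESCs-primed and 5C-Oct4GFP+ (primed), 90.6 TPM in the 5C-Oct4GFP+, 49.0 TPM in the 5C-Oct4GFP- and 23.9 TPM in the mES-Oct4GFP- cells. Gins1 had 94.0, 87.4 and 74.6 TPM in the mES-Oct4GFP+, naive and 5C-Oct4GFP+ cells, 53.7, 48.6 and 48.3 TPM in the 5C-Oct4GFP+ (primed), 5C-Oct4GFP- and R1 ESCs-primed, and 16.7 TPM in the mES-Oct4GFP- cells. Highest over lowest value was 6.40-fold for Mcm10 and 5.64-fold for Gins1. The 4 GINS proteins form 1 complex, yet their genes were ordered differently.

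Gins2 was highest in 5C-Oct4GFP+ (primed), R1 ESCs-primed and 5C-Oct4GFP+ cells (125, 117 and 115 TPM), then in naive and 5C-Oct4GFP- cells (98.8 and 82.8 TPM), and lower in mES-Oct4GFP+ (64.0 TPM) and mES-Oct4GFP- cells (36.9 TPM). Gins4 was highest in naive cells at 114 TPM, with 80.0 and 72.0 TPM in the R1 ESCs-primed and 5C-Oct4GFP+ (primed), 68.4 and 59.3 TPM in the 5C-Oct4GFP+ and mES-Oct4GFP+, and 54.1 and 46.4 TPM in the 5C-Oct4GFP- and mES-Oct4GFP- cells. Gins3 varied least of the 4, from 18.9 to 31.2 TPM, and Cdc45 was at 20.6 TPM in its lowest library, mES-Oct4GFP-, and at 88.7 TPM in its highest, mES-Oct4GFP+. Exons of Gins2 share up to 2758 bases with Gse1 on the opposite strand, those of Fen1 1909 bases with Gm10143 and those of Rfc5 499 bases with Wsb2, and the library kit did not keep strand. Such an overlap exists for 13 of the 43 genes.

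In the polymerase alpha-primase complex, the small primase subunit Prim1 was at 132 TPM in the mES-Oct4GFP+, 93.2 TPM in the naive, 83.8 and 78.6 TPM in the primed libraries, 77.1 TPM in the 5C-Oct4GFP+, 60.2 TPM in the 5C-Oct4GFP- and 25.4 TPM in the mES-Oct4GFP- cells. The catalytic subunit gene Pola1 was instead highest in 5C-Oct4GFP+ cells at 78.1 TPM, with 55.5 and 48.2 TPM in the mES-Oct4GFP+ and naive, 37.2 TPM in the 5C-Oct4GFP- cells, 36.3 and 31.7 TPM in the primed cells and R1 ESCs-primed, and 21.3 TPM in the mES-Oct4GFP- cells. Pola2, the accessory subunit, was highest in 5C-Oct4GFP+ (primed) and R1 ESCs-primed at 83.4 and 74.4 TPM, with 66.4, 60.9 and 59.7 TPM in the 5C-Oct4GFP+, 5C-Oct4GFP- and mES-Oct4GFP+, 51.6 TPM in the naive and 28.6 TPM in the mES-Oct4GFP- cells. Each of the 3 subunits thus peaked in a different state. Prim2, the large primase subunit, was highest in 5C-Oct4GFP+ cells at 49.1 TPM and lowest in mES-Oct4GFP- cells at 25.3 TPM.

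The polymerase delta genes Pold1, Pold2 and Pold3 had higher values in 5C than in mES medium in both reporter fractions. Pold1, the catalytic subunit, had 203 and 156 TPM in the 5C-Oct4GFP+ and 5C-Oct4GFP- cells, 136 TPM in the mES-Oct4GFP+, 121, 116 and 117 TPM in the naive, 5C-Oct4GFP+ (primed) and R1 ESCs-primed, and 54.8 TPM in the mES-Oct4GFP- cells. Pold2, an accessory subunit, had 136, 134 and 129 TPM in the 5C-Oct4GFP+, 5C-Oct4GFP+ (primed) and 5C-Oct4GFP- cells, 111 TPM in the R1 ESCs-primed cells, and 75.5, 62.6 and 60.7 TPM in the naive, mES-Oct4GFP+ and mES-Oct4GFP- cells. Pold2 was therefore low in 3 libraries, both grown in mES medium and the naive one, whatever the reporter state.

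Pold3, another accessory subunit, had 134 and 123 TPM in the R1 ESCs-primed and 5C-Oct4GFP+, 105, 99.0 and 96.5 TPM in the 5C-Oct4GFP+ (primed), 5C-Oct4GFP- and mES-Oct4GFP+, and 73.0 and 57.9 TPM in the naive and mES-Oct4GFP- cells. Pole and Pole2, the polymerase epsilon genes among the 43, peaked in mES-Oct4GFP+ cells instead. The further subunit genes Pole3 and Pole4, outside the 43, were highest in naive cells at 78.2 and 222 TPM. They had 66.6 and 203 TPM in the mES-Oct4GFP+ cells. The catalytic gene Pole was highest in mES-Oct4GFP+ cells at 94.5 TPM, with 74.3 TPM in the 5C-Oct4GFP+, 63.6 and 61.5 TPM in the naive and R1 ESCs-primed, 56.2 and 54.4 TPM in the 5C-Oct4GFP+ (primed) and 5C-Oct4GFP-, and 26.9 TPM in the mES-Oct4GFP- cells. The accessory gene Pole2 was at 8.94 TPM in the mES-Oct4GFP- cells, the lowest of all values of the 43 genes, and at 34.0, 34.3, 36.2, 37.4, 38.6 and 48.2 TPM in the 5C-Oct4GFP-, naive, 5C-Oct4GFP+, 5C-Oct4GFP+ (primed), R1 ESCs-primed and mES-Oct4GFP+ cells.

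The sliding clamp gene Pcna had the highest expression of the 43 genes in 5 of the 7 libraries and came after Orc5 in mES-Oct4GFP- and 5C-Oct4GFP+ cells. It was at 245 TPM in the mES-Oct4GFP- cells and at 473, 486, 546, 577, 585 and 619 TPM in the 5C-Oct4GFP+, 5C-Oct4GFP-, naive, mES-Oct4GFP+ and primed cells and in R1 ESCs-primed. Pcna has pseudogenes, between which reads may be split. Of the clamp loader genes, Rfc5 was at 216 and 214 TPM in the naive and mES-Oct4GFP+ cells, 167 TPM in the 5C-Oct4GFP+, 102 and 94.0 TPM in the 5C-Oct4GFP+ (primed) and R1 ESCs-primed, 79.0 TPM in the 5C-Oct4GFP- and 44.7 TPM in the mES-Oct4GFP- cells. Rfc3 was at 95.9, 87.6, 85.1 and 83.3 TPM in the R1 ESCs-primed cells, 5C-Oct4GFP+ (primed), mES-Oct4GFP+ and naive cells, 58.4 and 53.3 TPM in the 5C-Oct4GFP+ and 5C-Oct4GFP-, and 37.5 TPM in the mES-Oct4GFP- cells. Rfc4 was at 93.6 TPM in the R1 ESCs-primed cells, 76.9 and 73.5 TPM in the 5C-Oct4GFP+ and mES-Oct4GFP+ cells, 73.0 and 72.8 TPM in the 5C-Oct4GFP- and primed cells, 61.9 TPM in the naive and 38.8 TPM in the mES-Oct4GFP- cells. Rfc1 and Rfc2 had their lowest values in mES-Oct4GFP- cells (56.7 and 66.7 TPM) and their highest in 5C-Oct4GFP+ and primed cells (91.7 and 134 TPM). The 5 clamp loader subunits work as 1 ring, and their spans ran from 1.62-fold for Rfc1 to 4.82-fold for Rfc5.

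The genes of lagging-strand maturation had 1 order of libraries. Fen1, the flap nuclease, was at 109 and 103 TPM in the mES-Oct4GFP+ and naive cells, 94.8 and 91.8 TPM in the R1 ESCs-primed and 5C-Oct4GFP+ (primed), 68.4 TPM in the 5C-Oct4GFP+, 51.0 TPM in the 5C-Oct4GFP- and 27.7 TPM in the mES-Oct4GFP- cells. Lig1, the ligase that seals the fragments, had the same order, from 238 and 224 TPM over 190.3, 165, 153 and 144 TPM to 60.2 TPM. Rpa2, a subunit of the single-strand binding protein, was at 180.3 and 173 TPM in the naive and mES-Oct4GFP+ cells, 102, 102 and 100.4 TPM in the 5C-Oct4GFP+ cells, 5C-Oct4GFP+ (primed) cells and R1 ESCs-primed, 67.5 TPM in the 5C-Oct4GFP- and 37.7 TPM in the mES-Oct4GFP- cells. Rpa1 and Rpa3, the other subunits, ran from 80.8 and 61.5 TPM in mES-Oct4GFP- to 236 and 126 TPM in mES-Oct4GFP+ cells. Highest over lowest values of Fen1, Lig1 and Rpa2 were 3.95-, 3.95- and 4.78-fold.

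Rrm2, the small subunit of ribonucleotide reductase, was at 81.2 TPM in the mES-Oct4GFP- cells and at 234, 250.4, 254, 266, 278 and 281 TPM in the 5C-Oct4GFP+, 5C-Oct4GFP+ (primed), 5C-Oct4GFP-, naive, R1 ESCs-primed and mES-Oct4GFP+ cells. Rrm1, the large subunit, was at 153, 141 and 133 TPM in the R1 ESCs-primed cells, 5C-Oct4GFP+ (primed) and 5C-Oct4GFP- cells, 114, 109 and 95.6 TPM in the 5C-Oct4GFP+, mES-Oct4GFP+ and naive, and 81.9 TPM in the mES-Oct4GFP- cells. Both ribonucleotide reductase genes had somewhat higher values in 5C-Oct4GFP- than in the 5C-Oct4GFP+ cells, unlike 40 of the 43 genes.

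Differences between libraries were then taken on the log2(TPM + 1) scale, which slightly understates those of low genes. A gene counted as higher or lower when this difference reached 1.5-fold, and the genes compared had at least 1 TPM in either library. In mES medium, mES-Oct4GFP+ cells had higher expression of 36 of the 43 genes than mES-Oct4GFP- cells, and lower expression of 0. Among the 16294 genes compared, 27.5% were higher and 38.0% lower. The median difference was 1.35 for the 43 genes and -0.15 for all genes compared, and 30 of the 43 genes differed at least 2-fold. The highest differences were those of Orc1 (7.42-fold, 6.17 to 8.96), Mcm10 (5.93-fold, 5.23 to 6.75) and Gins1 (5.64-fold, 4.35 to 7.38). All genes of the MCM, licensing, primase, lagging-strand and replication protein A groups were higher. Orc5 was lower in reporter-positive cells (0.767-fold, 0.702 to 0.837) without reaching 1.5-fold, and Orc3 (1.01-fold, 0.891 to 1.14) and Pold2 (1.03-fold, 0.885 to 1.2) were at almost equal levels. The 9 fibroblast markers summed to 531 TPM in the reporter-negative and 12.6 TPM in the reporter-positive library.

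In 5C medium the difference between reporter fractions was smaller. 5C-Oct4GFP+ cells had higher expression of 10 of the 43 genes than 5C-Oct4GFP- cells (14.7% of 15675 genes compared) and lower expression of 0 (35.5%), with a median difference of 0.29 against -0.25 for all genes. Orc1 (2.48-fold, 2.09 to 2.95), Rfc5 (2.12-fold, 1.94 to 2.31) and Pola1 (2.1-fold, 1.92 to 2.29) differed most, and Mcm10, Cdt1, Mcm2, Mcm3, Gins1, Mcm5 and Rpa2 were the other 7. Rrm1 (0.857-fold, 0.809 to 0.907), Rrm2 (0.921-fold, 0.871 to 0.974) and Pcna (0.972-fold, 0.926 to 1.02) were the 3 genes with values below those of 5C-Oct4GFP- cells. The signed difference, Oct4GFP+ minus Oct4GFP-, was higher in mES than in 5C medium for 39 of the 43 genes, compared with 54.1% of the 17152 genes with at least 1 TPM in some sorted library. The 4 exceptions were Orc3, Orc4, Orc5 and Pold2. Orc5 had values of -0.38 and 0.18, so that by size alone the count was 40 (65.7% of all genes).

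**Figure D2:**
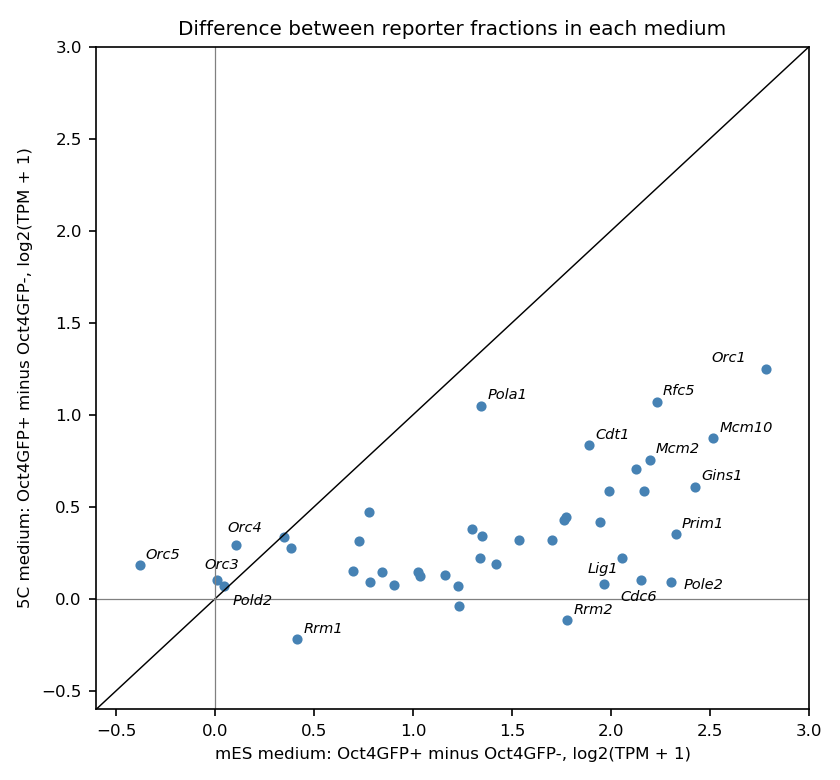
Difference of log2(TPM + 1) between Oct4GFP+ and Oct4GFP- cells for each of the 43 genes, in mES medium (horizontal axis) and 5C medium (vertical axis), with 1 library per condition. Of the 43 points, 39 lie below the line of equal differences, and Orc1 is highest on both axes (2.78 and 1.25).

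The medium was then compared within each reporter fraction. 5C-Oct4GFP- cells had higher expression of 32 of the 43 genes than mES-Oct4GFP- cells (19.9% of 15859 genes compared) and lower expression of 0 (19.1%). The median difference was 0.86, against 0.03 for all genes. Pole2 (3.8-fold, 2.87 to 5.09), Rrm2 (3.13-fold, 2.88 to 3.4) and Pold1 (2.85-fold, 2.56 to 3.17) differed most. Among the 43, all 6 MCM genes, all 5 genes of polymerases delta and epsilon and all 4 of polymerase alpha-primase were higher. Of the polymerase subunits outside the 43, Pole3 (1.47-fold, 1.29 to 1.68) and Pole4 (1.23-fold, 1.01 to 1.49) did not reach 1.5-fold. Pold4 was lower (0.498-fold, 0.398 to 0.621). Of the origin recognition complex 0 of 6 genes reached 1.5-fold on log2(TPM + 1). Orc2 fell just short there, at 0.575, with a TPM ratio of 1.51-fold (1.33 to 1.7). Orc6 (1.39-fold, 1.2 to 1.61) and Orc1 (1.31-fold, 1.04 to 1.65) came next. Orc5 (0.833-fold, 0.766 to 0.906), Orc3 (0.912-fold, 0.814 to 1.02) and Orc4 (1.03-fold, 0.894 to 1.17) had the 3 lowest values.

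5C-Oct4GFP+ cells had higher expression of 2 of the 43 genes than mES-Oct4GFP+ cells (21.9% of 15196 genes compared) and lower expression of 9 (24.5%), with a median of -0.29 against -0.06 for all genes. Neither share stands above that of all genes. Pold2 (2.17-fold, 1.91 to 2.47) and Gins2 (1.8-fold, 1.58 to 2.05) were the higher genes, and Pold1 came next (1.5-fold, 1.38 to 1.62) with a log2 difference of 0.58. Orc1 (0.437-fold, 0.392 to 0.487), Cdc6 (0.442-fold, 0.388 to 0.504) and Prim1 (0.586-fold, 0.526 to 0.652) were lowest, followed by Rpa2, Fen1, Orc6, Mcm10, Lig1 and Rpa1. Pold2 and Pold1 thus lay higher in 5C medium in both fractions. Values of 28 of the 43 genes were above those of mES medium in Oct4GFP- cells and below them in Oct4GFP+ cells, as for 25.1% of the 17152 genes with at least 1 TPM in some sorted library. Both differences reached 1.5-fold for 7 of the 28 (3.39% of the 17152 genes): Cdc6, Mcm10, Prim1, Fen1, Lig1, Rpa1 and Rpa2.

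**Figure D3:**
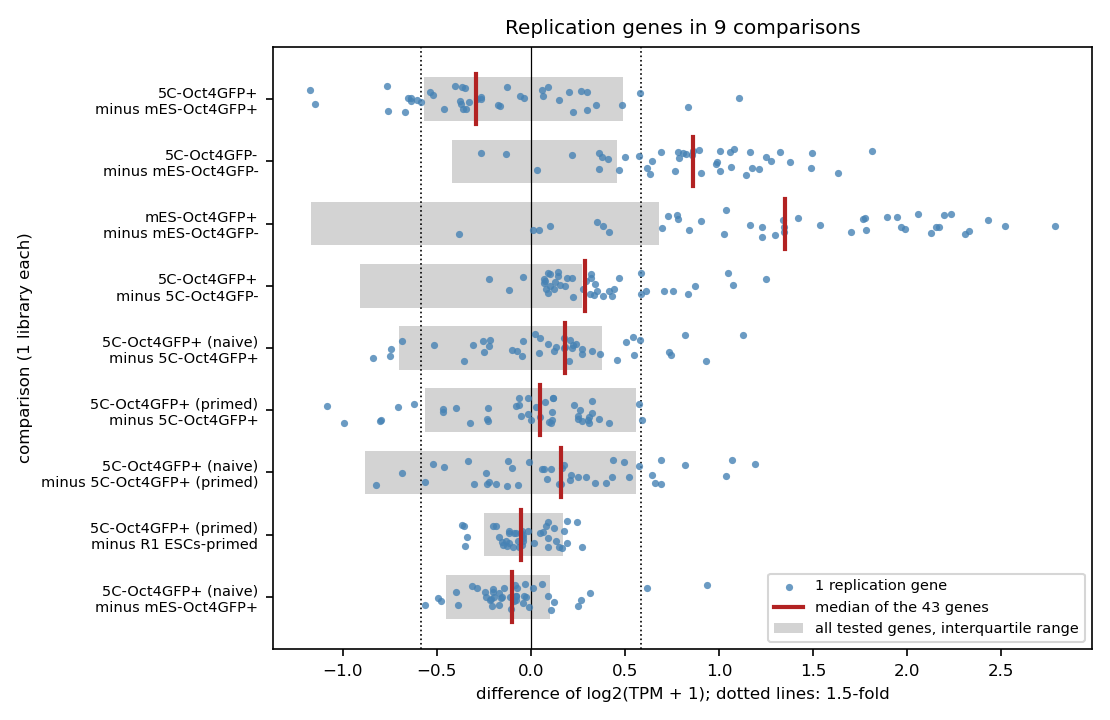
Difference of log2(TPM + 1) for each of the 43 genes (points, spread vertically for legibility) in the 9 comparisons of 1 library each, with the median of the 43 genes (red line) and the interquartile range of all genes compared (grey bar). Dotted lines mark 1.5-fold. The points lie mostly to the right of the grey bar in the comparisons with mES-Oct4GFP- cells, where the medians are 0.86 and 1.35, and around 0 in the comparisons among pluripotent libraries.

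The converted libraries show how the genes stood after culture of 5C-Oct4GFP+ cells in other media. In naive medium 5 of the 43 genes were higher than in the 5C-Oct4GFP+ cells (18.3% of 14863 genes compared) and 4 lower (28.6%), with a median of 0.18 against -0.10 for all genes. On TPM neither share stands above that of all genes. On FPKM, after median-ratio scaling and on expected counts scaled only to the library total 8 genes were higher in place of 5. Orc1 (2.22-fold, 2 to 2.46), Cdc6 (1.94-fold, 1.71 to 2.2), Rpa2 (1.77-fold, 1.63 to 1.92), Mcm10 and Gins4 were the 5 higher genes. The 4 lower genes were Pold2 (0.556-fold, 0.5 to 0.619), Pold3 (0.593-fold, 0.542 to 0.648), Pold1 (0.595-fold, 0.553 to 0.639) and Pola1 (0.617-fold, 0.565 to 0.672). Pole (0.855-fold, 0.793 to 0.922) and Pole2 (0.949-fold, 0.804 to 1.12) did not reach 1.5-fold. The MCM genes did not reach it either, with ratios from 1.09-fold for Mcm4 to 1.25-fold for Mcm3. Of the polymerase subunits outside the 43, Pold4 was lower (0.297-fold, 0.185 to 0.459), as were Pold1, Pold2 and Pold3. Pole3 (1.54-fold, 1.36 to 1.75) and Pole4 (2.14-fold, 1.94 to 2.37) were instead higher in naive cells. Without the length term, on expected counts scaled only to the library total, Pold3 differed by -0.40 in place of -0.75 and no longer reached 1.5-fold.

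In primed medium 1 of the 43 genes was higher than in the 5C-Oct4GFP+ cells (24.2% of 15067 genes compared) and 6 were lower (24.3%), with a median of 0.05 against 0.06 for all genes. The set as a whole was thus level with the background. Cdc6 was the higher gene (1.52-fold, 1.35 to 1.73), with a log2 difference of 0.59 in TPM, 0.58 on FPKM values and 0.54 after median-ratio scaling. The last 2 values are under 1.5-fold, so that 0 genes were higher on those scales. Rfc3 (1.5-fold, 1.33 to 1.69) and Fen1 (1.34-fold, 1.23 to 1.47) came next. Pola1 (0.465-fold, 0.428 to 0.504), Cdt1 (0.498-fold, 0.462 to 0.538), Pold1 (0.571-fold, 0.534 to 0.611), Orc4 (0.571-fold, 0.504 to 0.648), Rfc5 (0.612-fold, 0.568 to 0.658) and Orc5 (0.649-fold, 0.608 to 0.694) were the lower genes. On expected counts scaled only to the library total Orc5 differed by -0.39 in place of -0.62. Pola1 and Pold1 were thus lower than in the 5C-Oct4GFP+ cells after culture in either medium.

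Set against each other, naive cells had higher expression of 8 of the 43 genes than 5C-Oct4GFP+ (primed) cells (24.4% of 15249 genes compared) and lower expression of 2 (32.6%), with a median of 0.16 against -0.14 for all genes. The number of genes on either side was thus not above the background. The 8 higher genes were Orc1 (2.32-fold, 2.1 to 2.58), Rfc5 (2.11-fold, 1.96 to 2.27), Cdt1 (2.07-fold, 1.91 to 2.24), Rpa2, Orc4, Gins1, Gins4 and Cdc45. Pold2 (0.562-fold, 0.505 to 0.625) and Pola2 (0.619-fold, 0.559 to 0.684) were the lower genes, and Rrm1 was next (0.676-fold, 0.638 to 0.716). After median-ratio scaling Pola2 differed by -0.55 in place of -0.68 and no longer reached 1.5-fold. The naive library was labelled with 20 passages, as were both primed libraries, whereas the sorted libraries were labelled with 0, so that medium and passage number cannot be told apart between sorted and converted cells.

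**Figure D4:**
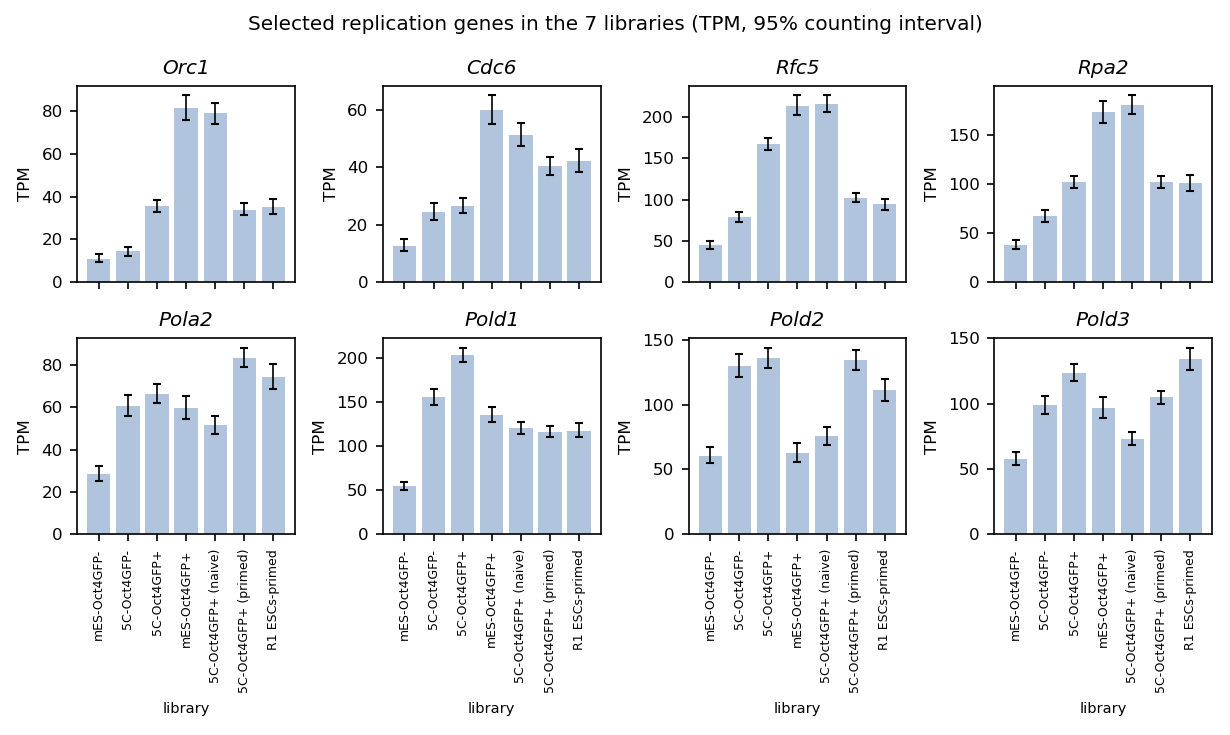
TPM of 8 replication genes in the 7 libraries, with 1 library per bar and exact 95% counting intervals as error bars. Orc1, Rfc5 and Rpa2 are highest in mES-Oct4GFP+ and naive cells, while Pold2 is lowest in mES-Oct4GFP-, mES-Oct4GFP+ and naive cells, at 60.7, 62.6 and 75.5 TPM.

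Libraries of like state but different origin were close to each other for these genes. Between 5C-Oct4GFP+ (primed) cells and R1 ESCs-primed 0 of the 43 genes were higher (6.73% of 14600 genes compared) and 0 lower (11.1%). All 43 differences lay between -0.36 and 0.27, with a median of -0.05 against -0.03 for all genes. Pold2 (1.21-fold, 1.1 to 1.33), Gmnn (1.18-fold, 1.05 to 1.34) and Pola1 (1.15-fold, 1.03 to 1.27) were at the upper end, and Orc2 (0.774-fold, 0.706 to 0.848), Rfc4 (0.778-fold, 0.677 to 0.893) and Pold3 (0.782-fold, 0.72 to 0.849) at the lower end. With 1 library each, these values do not show that the lines are alike.

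Between naive cells and mES-Oct4GFP+ cells 2 of the 43 genes were higher in naive cells (6.1% of 14477 genes compared) and 0 lower (18.2%), with a median of -0.10 against -0.16 for all genes. Gins4 (1.93-fold, 1.67 to 2.24) and Gins2 (1.54-fold, 1.34 to 1.78) were the higher genes and Cdt1 was next (1.24-fold, 1.15 to 1.35). Pole (0.673-fold, 0.62 to 0.731), Prim1 (0.708-fold, 0.635 to 0.788) and Pole2 (0.713-fold, 0.598 to 0.85) had the lowest values without reaching 1.5-fold. On expected counts scaled only to the library total Gins2 differed by 0.37 in place of 0.62.

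Other genes of the replication pathway were described beside the 43. Of 28 further replication genes 22 were higher and 1 lower in mES-Oct4GFP+ than in the mES-Oct4GFP- cells (27.5% and 38.0% of all genes), and 20 were higher and 1 lower in 5C-Oct4GFP- than in the mES-Oct4GFP- cells (19.9% and 19.1%). Pold4, the smallest subunit of polymerase delta, was the lower gene in both, with 68.5 TPM in the mES-Oct4GFP-, 34.2 TPM in the 5C-Oct4GFP-, 22.2 TPM in the 5C-Oct4GFP+, 14.1 and 11.8 TPM in the 5C-Oct4GFP+ (primed) and R1 ESCs-primed, and 6.58 and 5.74 TPM in the naive and mES-Oct4GFP+ cells. It was highest where most replication genes were lowest. Chtf18, part of an alternative clamp loader, went with the majority and was at 11.8 TPM in the mES-Oct4GFP-, 51.1 TPM in the 5C-Oct4GFP-, 42.5 and 52.0 TPM in the primed libraries and 92.3, 101 and 139.5 TPM in the naive, mES-Oct4GFP+ and 5C-Oct4GFP+ cells.

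Of 10 nucleotide supply genes 7 were higher in mES-Oct4GFP+ than in the mES-Oct4GFP- cells and 0 lower (27.5% and 38.0% of all genes). Dut, which keeps uracil out of DNA, was at 802 and 776 TPM in the naive and mES-Oct4GFP+ cells, 491 and 446 TPM in the R1 ESCs-primed and 5C-Oct4GFP+ (primed), 331 and 316 TPM in the 5C-Oct4GFP+ and 5C-Oct4GFP-, and 145 TPM in the mES-Oct4GFP- cells. Tyms, the thymidylate synthase, stood at 195 TPM in the mES-Oct4GFP+ and 47.9 TPM in the mES-Oct4GFP- cells. In 5C medium 0 of the 10 genes differed between fractions, where 14.7% of all genes were higher and 35.5% lower in Oct4GFP+ cells. Of the 10 genes 5 were lower in 5C-Oct4GFP+ than in the mES-Oct4GFP+ cells, with 0 higher (24.5% and 21.9% of all genes).

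Of 20 genes of mitosis, which follows replication in the cycle, 19 were higher in mES-Oct4GFP+ than in the mES-Oct4GFP- cells (27.5% of all genes). In 5C-Oct4GFP- cells 20 of 20 were higher than in the mES-Oct4GFP- cells (19.9% of all genes). The medians of the mitosis genes were 1.62 and 1.37. Between 5C-Oct4GFP+ and mES-Oct4GFP+ cells their median was 0.13, where that of the 43 replication genes was -0.29. Ccnb1, a mitotic cyclin, had 78.7 TPM in the mES-Oct4GFP- and 392 TPM in the mES-Oct4GFP+ cells. Kif20a, a kinesin of cell division, had 44.5 and 191 TPM in these libraries. Mki67, which codes for the proliferation antigen Ki-67, was the 1 gene of the 20 that did not reach 1.5-fold between them, with 45.1 and 57.7 TPM, and was named after its values were seen. It was highest in 5C-Oct4GFP- cells at 158 TPM, with 90.8 TPM in the 5C-Oct4GFP+ cells.

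Of the 13 genes of E2F factors, their partners and the pocket proteins, 3 were higher and 3 lower in mES-Oct4GFP+ than in the mES-Oct4GFP- cells, shares under those of all genes (27.5% and 38.0%). The lower genes were Rb1, which encodes the retinoblastoma protein, with 22.2 against 125 TPM, the related Rbl2 with 13.6 against 36.6 TPM, and E2f6, a repressor of the family, with 21.2 against 37.7 TPM. E2f1, an activator, was higher at 59.4 against 25.3 TPM, as were E2f8 at 15.3 against 8.57 TPM and the pocket protein gene Rbl1 at 14.8 against 8.82 TPM. E2f6, E2f1, E2f8 and Rbl1 were named after their values were seen. Among the 43 replication genes, the median difference between these libraries was 1.70 for the 15 with an E2F match such as those printed above and 1.28 for the 20 promoters without one. Genes without a promoter entry are in neither median. Orc3 was flat with a match, and Mcm10, among the most different genes, had none in the window searched. Whether a match bears on the difference was not tested.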

How the data were processed

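RNA was measured in 7 libraries, grouped by their labels with 1 library per condition. Libraries were made with an unstranded TruSeq kit and sequenced on a MiSeq. The submitters' processing notes name Bowtie, RSEM and build mm10, and versions are not given in the sources used here. The expected counts deposited by the authors are RSEM's estimated reads per Ensembl gene, not normalized. The authors' TPM values divide these by the effective length and scale each library to the same sum, and the authors' FPKM values scale them to mapped fragments. Expected counts summed to between 6108252 and 11496615 per library.

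The 43 genes and all other lists were chosen with earlier results of these data known, so that the lists support nothing by themselves. Symbols were matched through GENCODE M21 (28756 of 29267 identifiers). TPM was used with a pseudocount of 1, since the methods name it, and genes with at least 1 TPM in either of the libraries compared entered each of 9 comparisons. A difference of log2(TPM + 1) of at least 1.5-fold was called, with 2-fold as a second limit. The text names, in each comparison, the 3 highest and 3 lowest genes and those at least 1.5-fold against the median's direction, gives TPM in all libraries for them, and names from each further list the 2 genes with the largest difference between reporter fractions in mES medium, with exceptions marked in the text. Ratios are of TPM, with exact (Clopper-Pearson) 95% intervals computed on the rounded expected counts. With 1 library per condition no p-value was computed. Alternatives were a pseudocount of 0.1, FPKM, median-ratio scaling, a minimum of 5 TPM or none, leaving out the 3 largest differences, and, added after seeing the data, expected counts scaled only to the library total, with no length term. Calculations were tested on simulated data and run in Python 3.11.15 with matplotlib 3.10.9, scipy 1.17.1, pandas 2.3.3 and numpy 2.4.6.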

Additional observations from a re-analysis of the deposited data

Results flagged for a closer look

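For 7 of the 43 genes, compared with 3.39% of 17152 genes with at least 1 TPM in some sorted library, the medium difference had opposite directions in the reporter fractions, at least 1.5-fold higher in 5C-Oct4GFP- than in the mES-Oct4GFP- cells and at least 1.5-fold lower in 5C-Oct4GFP+ than in the mES-Oct4GFP+ cells. The difference in Oct4GFP- cells minus that in Oct4GFP+ cells, on log2(TPM + 1), was 2.05 for Cdc6, 1.97 for Prim1, 1.88 for Lig1, 1.64 for Mcm10, 1.58 for Rpa2, 1.53 for Fen1 and 1.22 for Rpa1. With 1 library per condition this difference was not tested. All 7 genes were lowest in mES-Oct4GFP- cells, whose library enters each of these values.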

How the results depend on the processing

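Of the 9 medians of the 43 genes 2 changed sign, both after median-ratio scaling and both close to 0: primed against 5C-Oct4GFP+ cells from 0.05 to -0.01, and naive against mES-Oct4GFP+ cells from -0.10 to 0.02. Of the counts of these genes 105 stayed within 1.5 times the main value and 9 did not, and of the medians 60 stayed and 3 moved. The median between fractions in mES medium was 1.57 on expected counts scaled only to the library total (main value 1.35) and that in 5C medium 0.45 after median-ratio scaling (0.29). From 5C-Oct4GFP+ to naive cells 8 genes were higher on FPKM, on median-ratio scaling and on scaled counts (5), and from 5C-Oct4GFP+ to primed cells 0 were higher on FPKM and median-ratio scaling and 2 on scaled counts (1). Between naive and primed cells the median was 0.29 and 1 gene was lower after median-ratio scaling (0.16 and 2), and 1 gene was higher in naive than in mES-Oct4GFP+ cells on scaled counts (2). The number of genes highest in mES-Oct4GFP+ cells was 11 after median-ratio scaling (20). The causes were not tested, except that scaled counts carry no length term. No paired analysis was possible because each condition has 1 library. Leaving out a library would leave no value for its condition. Depth left counting intervals that are narrow for these genes, and the spread between cultures stays unknown.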

Other observations

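The 13 genes of E2F factors, their partners and pocket proteins were also compared between the pluripotent states. Against 5C-Oct4GFP+ cells, 8 of them were at least 1.5-fold lower and 0 higher in naive cells (28.6% and 18.3% of all genes), with a median difference of -0.75 on log2(TPM + 1), against 0.18 for the replication genes and -0.10 for all genes. Between naive and 5C-Oct4GFP+ (primed) cells 2 were higher and 7 lower in naive cells (24.4% and 32.6% of all genes). The genes named here were chosen after their values were seen. The higher genes were E2f1, an activator, with 59.9 TPM in naive and 16.2 TPM in primed cells, and the pocket protein gene Rbl2 with 8.21 and 2.98 TPM. The lower genes included E2f6, a repressor, with 12.2 and 53.4 TPM, and E2f4, which acts with pocket proteins, with 112 and 199 TPM. R1 ESCs-primed had 20.5 TPM for E2f1, 54.0 TPM for E2f6 and 232 TPM for E2f4, each nearer to the primed than to the naive value, and 5.11 TPM for Rbl2, which lay between both.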
